A study of Homo sapiens with 6 samples.

Results

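RUNX factors and their cofactors were followed in RNA-seq of cells collected at day 8 of hematopoietic differentiation of H1, a human embryonic stem cell (hESC) line. The members were chosen by gene symbol: the DNA-binding factors RUNX1, RUNX2 and RUNX3, their shared partner CBFB, and the ETO family corepressors RUNX1T1 (ETO), CBFA2T2 (MTGR1) and CBFA2T3 (ETO2, also called MTG16). These are 7 of the 58364 genes in the deposited table, and each of them stands on 1 row.

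A RUNX factor binds DNA through its Runt domain and holds the site more firmly when it is joined to CBFB, which does not touch DNA itself. RUNX1 is known as the factor that endothelial cells of the embryo need to turn into blood cells, the endothelial-to-hematopoietic transition (EHT). RUNX2 is best known from bone and cartilage, and RUNX3 from T cells and sensory neurons. The ETO family proteins do not bind DNA on their own. They bring corepressors with histone deacetylases to transcription factors, and CBFA2T3 is a known part of the TAL1, LMO2 and GATA complexes of blood progenitors.

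The groups were WT H1 cells (2 libraries) and MSX2-/- H1 cells (4 libraries), with no treatment beyond the differentiation itself. MSX2 is a homeobox transcription factor, and the study's methods state that its second exon was cut with CRISPR/Cas9 delivered by lentivirus, so each MSX2-/- line grew from 1 edited and puromycin-selected cell. No Cas9 control line without a guide is named for WT, so that editing, selection and cloning cannot be told apart from the loss of MSX2. The MSX2-/- libraries are 2 replicates of each of the clones 1# and 2#. Replicate 1 carries the set letter F and replicate 2 the set letter S in the labels, which do not say what the letters stand for. The labels name CD31+ cells for MSX2-/- libraries only, whereas the study's results text names them for both genotypes. HAND1 overexpression appears in the growth protocol of the labels and nowhere in the study's text, and HAND1, a factor of heart and extraembryonic mesoderm, had 2.32 and 1.14 FPKM in WT and 9.61 to 22.5 FPKM in MSX2-/- libraries. Whether any library carried such a construct was not tested. The study's methods speak in general of independent experiments, but nothing states that these sequenced replicates came from separate cultures. The p-values therefore measure the spread between these libraries, which may be technical. Values are FPKM (fragments divided by transcript length and by the mapped fragments of the library), which corrects for transcript length and library size.

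The 16 endothelial markers, PECAM1 (CD31) and CDH5 among them, were all detected, and their FPKM summed to 8964 to 9953 in WT and 7374 to 8236 in MSX2-/- libraries. RNA of endothelial markers was thus present in both genotypes, and its sum was lower in each MSX2-/- library than in both WT libraries. PTPRC (CD45), the marker of later blood cells, was at 0.115 FPKM or below in each library. Summed erythroid markers were 146 to 178 FPKM in WT and 307 to 681 FPKM in MSX2-/- libraries, and summed hematopoietic progenitor markers were 315 to 486 and 470 to 608 FPKM. MSX2 itself stood at 3.64 and 1.44 FPKM in WT and at 5.62 to 31.8 FPKM in the libraries labelled MSX2-/-, so its RNA level does not check the labels. In bulk RNA, more cells of a type and more RNA per cell cannot be told apart, and this applies to each value that follows.

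The gene RUNX1 is on chromosome 21, minus strand (chr21:34787801-36004667, GRCh38), and its sequence is shown with that of CBFA2T3 because these were the members that were higher in each MSX2-/- library than in both WT libraries. CBFA2T3 lies on the minus strand of chromosome 16 (chr16:88874858-88977204). The 250 bases upstream of the RefSeq start sites read 5′ to 3′ as follows, from chr21:34888700-34888949 and chr16:88941351-88941600, minus strand, GRCh38.p14. No base is in capitals, since none of the motifs searched occurred in them.
RUNX1: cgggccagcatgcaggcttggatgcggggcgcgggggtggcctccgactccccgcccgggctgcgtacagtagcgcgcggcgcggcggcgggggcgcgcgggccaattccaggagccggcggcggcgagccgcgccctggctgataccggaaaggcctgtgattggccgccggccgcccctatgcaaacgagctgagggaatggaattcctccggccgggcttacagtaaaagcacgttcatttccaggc
CBFA2T3: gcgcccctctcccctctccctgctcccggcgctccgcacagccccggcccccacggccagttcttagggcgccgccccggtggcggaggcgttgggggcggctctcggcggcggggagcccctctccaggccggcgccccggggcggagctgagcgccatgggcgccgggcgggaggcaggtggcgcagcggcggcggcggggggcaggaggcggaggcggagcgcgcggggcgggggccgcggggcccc
Both stretches lie inside their genes, in introns of longer transcripts: 6 RUNX1 transcripts and 5 CBFA2T3 transcripts of the GENCODE 29 annotation span them, and no annotated exon overlaps either.

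Short motifs were searched on both strands of the 35116 RefSeq promoters. The RUNX site, spelled TGTGGT, occurred in 13.1% of them. Blood factors of the GATA family bind the letters AGATAA, which occurred in 10.3%, and the E-box of TAL1 complexes, CAGATG, occurred in 14.7%. An ETS factor site, GGAAGT, was found in 22.8% and the homeodomain site, TAATTG, in 7.38%. No motif holds another whole, but neighbouring matches of different motifs can share letters at their ends. Among the members, promoters of RUNX1, RUNX2, RUNX3, CBFA2T2 and CBFA2T3 were examined, and those of CBFB and RUNX1T1 were not. RUNX sites occurred in the distal promoters of RUNX2, with 4 matches, and RUNX3, with 2, and 1.31% of all promoters hold 2 or more. The RUNX2 matches lay at positions -191, -87, 17 and 25 from the start, so the search ran past the start. CBFA2T2 held 1 TAATTG match, 246 bases upstream of its start. The distal promoters of RUNX2 and RUNX3 share an 18-base stretch with a pair of RUNX sites. It was found in 2 of 35116 promoters, those of RUNX2 and RUNX3. The stretch ran from position 15 to 32 in RUNX2, downstream of the start, and from -133 to -116 in RUNX3, upstream of the start. It is shown within 28 bases, with the RUNX sites, which read on the other strand, in capitals, because it is the feature these paralogs had in common. The windows shown for RUNX1 and CBFA2T3 did not hold it, and other start sites of these genes were not searched. The RUNX1 window is an internal one and not its distal promoter, since the RefSeq gene reaches further upstream, to chr21:35049302. Whether the distal promoter of RUNX1 holds the stretch was therefore not examined. The stretches are chr6:45328339-45328366 on the plus strand and chr1:24965121-24965148 on the minus strand.
RUNX2 distal: acaaacaACCACAgaACCACAagtgcgg
RUNX3 distal: tccctcaACCACAgaACCACAaggccag
A match in these letters, or the lack of one, is a description of sequence, and binding was not measured here. The study itself reports strong binding of MSX2 at the RUNX1 promoter by ChIP-qPCR, which this search does not address.

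Per transcript length, CBFB had the highest mean among the members and RUNX2 the lowest. Averaged over all libraries, CBFB had 66.5 FPKM, RUNX1 35.4, RUNX1T1 30.7, CBFA2T2 25.9, CBFA2T3 23.9, RUNX3 3.16 and RUNX2 0.591. CBFB was above 90.4% of the 15895 genes tested in mean FPKM, RUNX1 above 81.7%, RUNX3 above 31.3% and RUNX2 above 2.98%. This order mixes the genotypes: in WT the means were 63.6 FPKM for CBFB, 33.8 for RUNX1T1, 23.8 for CBFA2T2, 18.3 for RUNX1 and 9.68 for CBFA2T3, so that RUNX1 stood below RUNX1T1 and CBFA2T2 there. The ranges of neighbours over all libraries overlapped, and CBFA2T2 (43.8 FPKM) exceeded CBFB (42.6) in clone 2# replicate 1, although CBFB exceeded RUNX1 and CBFA2T3 exceeded RUNX3 in each library, and RUNX3 exceeded RUNX2 in 5 of 6. All 7 members passed the minimum mean of 0.5 FPKM for testing.

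**Figure D1:**
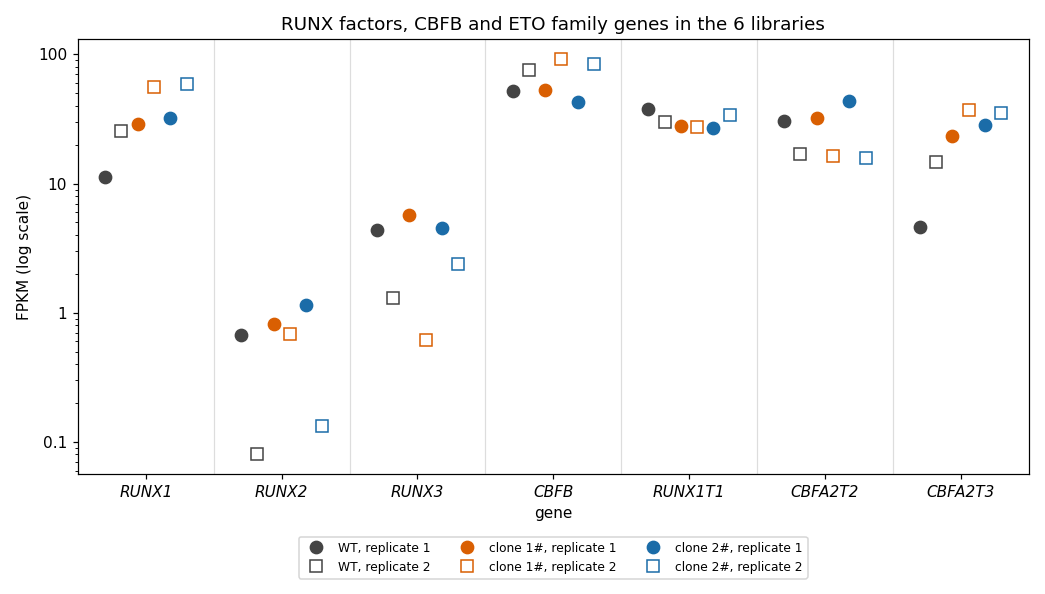
FPKM of the 7 members on a log scale, with 1 point per library (grey, WT; orange, clone 1#; blue, clone 2#; filled circles, replicate 1; open squares, replicate 2). RUNX1 and CBFA2T3 show all 4 MSX2-/- points above both WT points, whereas the other members overlap between genotypes and several of them split by replicate number.

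To ask whether loss of MSX2 changed the RUNX family, the 4 MSX2-/- libraries were compared with WT. RUNX1 had 11.2 and 25.4 FPKM in WT replicates 1 and 2, 29.1 and 55.6 FPKM in clone 1#, and 32.1 and 58.8 FPKM in clone 2#. All MSX2-/- libraries lay above both WT libraries, and replicate 2 lay above replicate 1 in WT and in each clone. The mean was 18.3 ± 10.04 FPKM in WT (SD, n = 2) and 43.9 ± 15.5 in MSX2-/- cells (SD, n = 4), a ratio of 2.40.

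Within a replicate number the RUNX1 difference was close to the same size everywhere. Relative to the WT library of the same number, RUNX1 was 2.59-fold and 2.19-fold in clone 1# and 2.86-fold and 2.32-fold in clone 2#. On the log2(FPKM + 1) scale, which understates the change of low genes, the difference was 1.25 ± 0.41 (standard error), and limma gave an adjusted p of 0.285 when replicate numbers were not in the fit. Blocking on the replicate number brought the standard error to 0.09, the 95% interval 1.04 to 1.47 and the adjusted p 0.00163. RUNX1 was therefore called higher in the fit that pairs libraries by number and not in the fit without it. Both fits take the libraries of a clone as separate units, here and for the other members. Their intervals therefore describe these lines and not loss of MSX2 in general. With the pairing, clone 1# (1.20, adjusted p 0.0131) and clone 2# (1.31, adjusted p 0.0106) were each past the threshold too. Leaving out any 1 of the 6 libraries kept the blocked call, with differences of 1.14 to 1.37 and adjusted p of 0.00786 to 0.0220. Without the block the difference ran from 0.70 without WT replicate 1 to 1.81 without WT replicate 2.

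RUNX2, the bone and cartilage factor, was close to the lower limit of detection. It had 0.674 and 0.0802 FPKM in WT replicates 1 and 2, 0.816 and 0.688 in clone 1#, and 1.15 and 0.132 in clone 2#. Each MSX2-/- library exceeded the WT library of its number, by 1.21-fold to 8.57-fold, but clone 2# replicate 2 lay below WT replicate 1. RUNX2 was not called (0.30, 95% interval -0.23 to 0.82, adjusted p 0.435 with the block). SUPT3H, which overlaps RUNX2 on the opposite strand, had 3.79 to 9.39 FPKM, and the use of strand in counting is not given in the sources used here, so that reads at the overlap are uncertain.

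RUNX3 had 4.37 and 1.31 FPKM in WT, 5.74 and 0.615 in clone 1#, and 4.51 and 2.40 in clone 2#. These ranges overlapped, and clone 1# held both the highest and the lowest value. The difference was 0.10 (95% interval -0.62 to 0.83, adjusted p 0.863 with the block).

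CBFB, the shared partner, had 51.8 and 75.4 FPKM in WT, 52.6 and 92.8 in clone 1#, and 42.6 and 83.6 in clone 2#. Replicate 2 was above replicate 1 in each line and the genotypes overlapped. Its level was 0.823-fold to 1.23-fold that of WT within replicate numbers, and the difference was 0.05 (95% interval -0.25 to 0.34, adjusted p 0.846 with the block).

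Among the corepressors, CBFA2T3 was the member furthest from WT. It had 4.63 and 14.7 FPKM in WT replicates 1 and 2, 23.2 and 37.4 FPKM in clone 1#, and 28.3 and 35.2 FPKM in clone 2#. The lowest MSX2-/- library, clone 1# replicate 1, lay above the higher WT library. The means were 9.68 ± 7.14 FPKM in WT (SD, n = 2) and 31.0 ± 6.48 in MSX2-/- cells (SD, n = 4), a ratio of 3.20.

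Within replicate 1 CBFA2T3 was 5.01-fold (clone 1#) and 6.11-fold (clone 2#) the WT level, and within replicate 2 it was 2.54-fold and 2.39-fold. The log2 difference was 1.74 ± 0.41 (standard error), at an adjusted p of 0.129 in limma without the block. With the block the standard error was 0.22, the 95% interval 1.20 to 2.29 and the adjusted p 0.00798. It was called in clone 1# (1.70, adjusted p 0.0414) and clone 2# (1.79, adjusted p 0.0365) in that fit as well. The blocked call held when any 1 library was left out, at differences of 1.24 without WT replicate 1 to 2.24 without WT replicate 2, with adjusted p of 0.0122 to 0.0411. Without the block it ran from 1.002 to 2.48, with the same libraries left out. It was lost in the blocked fit with no filter on low values (adjusted p 0.0633), where the RUNX1 call remained (adjusted p 0.02002).

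RUNX1T1, which is fused to RUNX1 by a recurrent translocation in leukemia, had 37.8 and 29.8 FPKM in WT, 28.1 and 27.3 in clone 1#, and 27.1 and 33.9 in clone 2#. It was below both WT libraries in 3 of 4 MSX2-/- libraries, with clone 2# replicate 2 the exception. The difference was -0.20 (95% interval -0.54 to 0.13, adjusted p 0.400 with the block). CBFA2T2 had 30.7 and 16.9 FPKM in WT, 31.9 and 16.4 in clone 1#, and 43.8 and 15.8 in clone 2#. Its libraries split by replicate number and not by genotype, and the difference was 0.10 (95% interval -0.25 to 0.46, adjusted p 0.705 with the block).

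**Figure D2:**
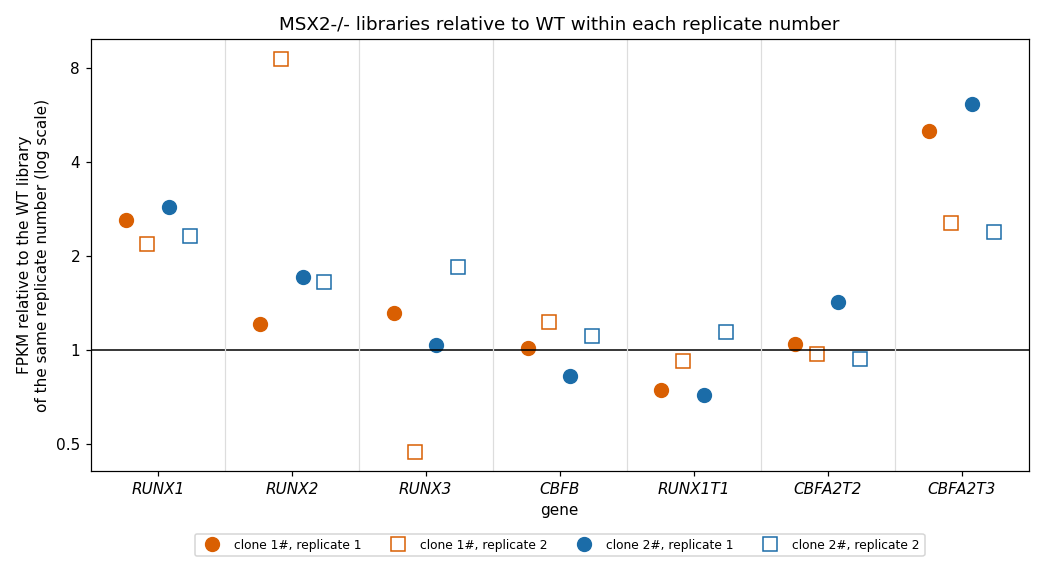
FPKM of each MSX2-/- library divided by the WT library that shares its replicate number, on a log scale, with the line at 1 marking equal levels (orange, clone 1#; blue, clone 2#; filled circles, replicate 1; open squares, replicate 2). RUNX1 lies between 2.19 and 2.86 and CBFA2T3 between 2.39 and 6.11, whereas CBFB, RUNX1T1 and CBFA2T2 lie around 1.

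Counted over the family, 0 of 7 members were called without the block, against 1.28% of the genes tested, 0.963% higher and 0.321% lower. At an unadjusted p under 0.05 the count was 2 of 7, RUNX1 and CBFA2T3, against 11.8% of all genes. With the block 2 of 7 were called, both higher, against 9.85% of the genes tested, 6.11% higher and 3.74% lower. RUNX1 and CBFA2T3 were also the members whose MSX2-/- libraries all lay above both WT libraries, a pattern seen in 12.1% of genes, and no member showed the opposite pattern, which 9.19% did. Together with RUNX2 they were 3 of 7 members above the WT library of their number in 4 of 4 libraries, as were 23.6% of genes, while 21.4% were below it in all 4 and no member was.

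The clones were alike in the direction of RUNX1 and CBFA2T3. Without the block, limma called 0 of 7 members in clone 1# and in clone 2#, each against 0.00629% of genes, and 1 and 2 members had an unadjusted p under 0.05, as had 7.37% and 7.43% of all genes. With the block it called RUNX1 and CBFA2T3 in each clone, against 3.46% of genes in clone 1# and 3.71% in clone 2#. Between the clones no member was called, and 0% of all genes were, with no member and 1.42% of genes at an unadjusted p under 0.05. Across the 7 members, the difference of clone 2# from clone 1# ran from -0.22 for CBFB to 0.39 for RUNX3 on the log2 scale. Both clones were set against the same WT libraries, so their agreement is not independent.

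Several members differed more between replicate numbers than between genotypes. With the line as a term in the fit, 5 of 7 members differed between set S (replicate 2) and set F (replicate 1), against 27.9% of the genes tested. Of these, 3 were higher in set S, as were 12.5% of genes, and 2 were lower, as were 15.5%. RUNX1 was higher by 0.96 (adjusted p 0.00462), CBFB by 0.77 (adjusted p 0.00770) and CBFA2T3 by 0.82 (adjusted p 0.0469). CBFA2T2 fell by 1.05 (adjusted p 0.00752) and RUNX3 fell by 1.32 (adjusted p 0.0219).

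In FPKM, set S exceeded set F by 1.46-fold to 1.96-fold for CBFB and by 1.83-fold to 2.27-fold for RUNX1 across WT and both clones. For CBFA2T2, set F exceeded set S by 1.82-fold to 2.78-fold. RUNX2 (-0.56, adjusted p 0.106) and RUNX1T1 (-0.02, adjusted p 0.927) were not called. These calls rested on few libraries: without either library of clone 1# none of the 5 remained, at adjusted p from 0.0510 upwards, and without any other library 3 remained. Their directions held in each of these fits. With no filter on low values none of the 5 was called, and CBFA2T3 was not called with a pseudocount of 0.1 (adjusted p 0.0503) or with rescaled libraries (adjusted p 0.0526).

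**Figure D3:**
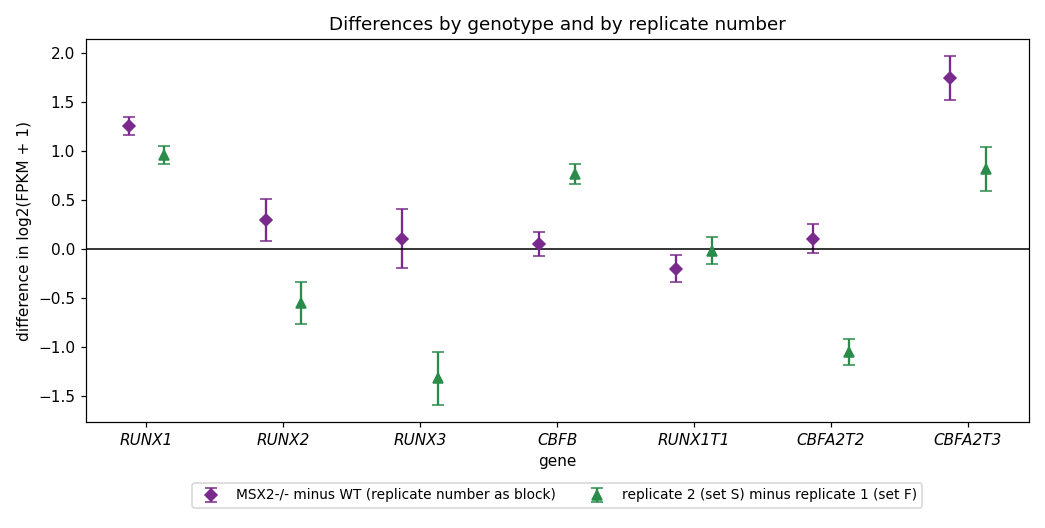
Differences in log2(FPKM + 1) for the 7 members, between genotypes in the blocked fit (diamonds) and between replicate 2 and replicate 1 with the line as a term (triangles); bars are standard errors. RUNX1 and CBFA2T3 were higher on both, CBFB was higher in replicate 2 at a genotype difference of 0.05, and CBFA2T2 and RUNX3 were lower in replicate 2.

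The difference of CBFA2T3 from WT was larger in set F than in set S, with an interaction of genotype and set of -0.996 (standard error 0.21, unadjusted p 0.00640 in limma). This did not pass adjustment over all genes (adjusted p 0.342), and no member did, against 0.0189% of the genes tested. For RUNX1 the interaction was -0.23 (95% interval -0.61 to 0.15).

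The make-up of the family followed from these levels. RUNX1 provided 69.0% and 94.8% of the summed FPKM of the RUNX factors in WT replicates 1 and 2, 81.6% and 97.7% in clone 1#, and 84.99% and 95.9% in clone 2#. The genotypes overlapped, with a difference of 8.15 percentage points (exact permutation test, two-sided, p = 0.4). This test, like the other permutation tests below, takes no account of replicate number or clone. Within replicate numbers the share was above that of WT in 4 of 4 MSX2-/- libraries. RUNX3 provided 1.08% to 26.9%, and more than RUNX2 in each library but clone 1# replicate 2, where RUNX2 provided 1.21%.

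CBFB per summed RUNX FPKM was 3.19 and 2.82 in WT, 1.48 and 1.63 in clone 1#, and 1.13 and 1.36 in clone 2#. Each MSX2-/- library lay below both WT libraries, and unlike the FPKM of CBFB this ratio did not split by replicate number. The difference was -1.60 (exact permutation test, two-sided, p = 0.0667, the smallest p that 15 assignments of 2 and 4 libraries allow). The FPKM of CBFB itself overlapped between genotypes and was not called, and RUNX1 makes up most of the denominator. The ratio is therefore not a result separate from the RUNX1 difference. CBFB and RUNX FPKM are RNA levels, and neither protein was measured here.

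In the ETO family, CBFA2T3 made up 6.33% and 23.96% of the summed FPKM in WT, 27.9% and 46.1% in clone 1#, and 28.5% and 41.4% in clone 2#. The lowest MSX2-/- share was above the higher WT share, at an exact permutation p of 0.133 (two-sided). The difference was 20.8 percentage points, 12.01 without WT replicate 1 and 29.6 without WT replicate 2. RUNX1T1 made up 51.7% and 48.5% in WT and 27.4% to 40.0% in MSX2-/- libraries, also without overlap (exact permutation test, p = 0.0667). The FPKM of RUNX1T1 itself overlapped between genotypes and was not called, and its share has CBFA2T3 in the denominator. The summed ETO family FPKM was 73.1 and 61.4 in WT and 81.1 to 99.2 in MSX2-/- libraries (exact permutation test, p = 0.0667). Neither the RUNX1T1 share nor this sum was among the planned measures.

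**Figure D4:**
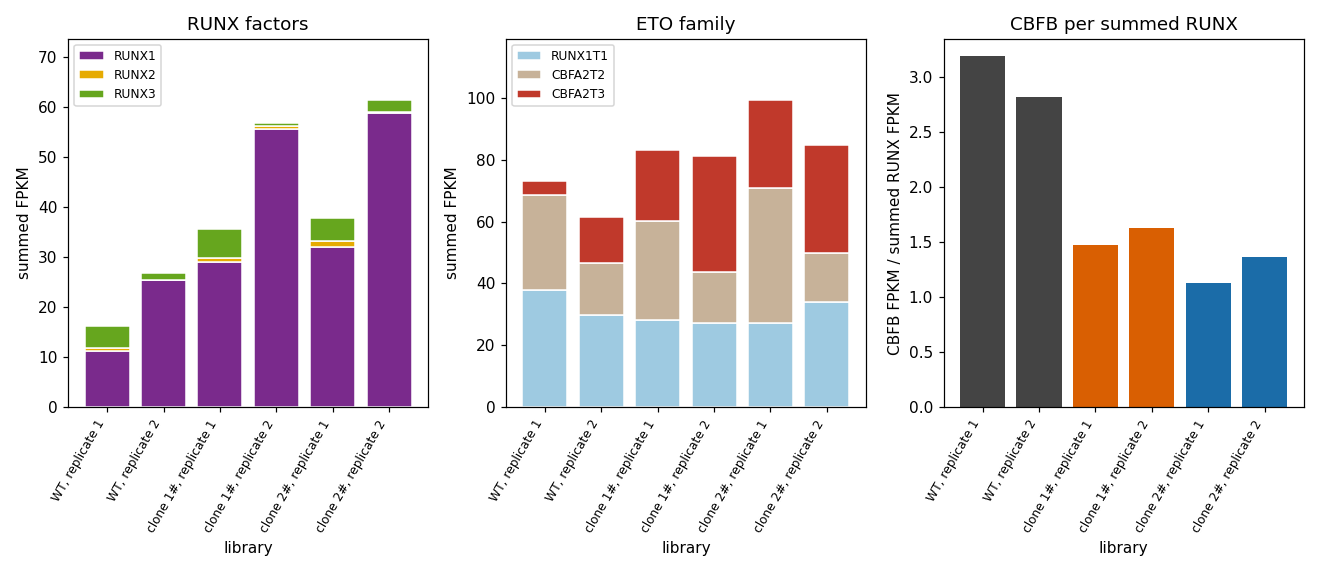
Summed FPKM of the RUNX factors (left), summed FPKM of the ETO family (middle) and the ratio of CBFB FPKM to summed RUNX FPKM (right; grey, WT; orange, clone 1#; blue, clone 2#), with 1 bar per library. The ratio is 2.82 and 3.19 in WT and 1.13 to 1.63 in MSX2-/- libraries, and the CBFA2T3 part of the ETO bars is larger in each MSX2-/- library than in WT.

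Because summed blood markers also moved with the genotype, RUNX1 and CBFA2T3 were set beside SPN (CD43), a surface antigen of early hematopoietic progenitors that was chosen after its values were seen and was higher in each MSX2-/- library. Other progenitor markers differed from it: CD34 had 161 and 269 FPKM in WT and 193 to 240 in MSX2-/- libraries, and CD53 had 2.19 and 3.28 in WT and 1.11 to 1.84 in MSX2-/- libraries. The stem cell factor receptor KIT had 12.2 and 5.94 FPKM in WT and 6.23 to 7.76 in MSX2-/- libraries. RUNX1 per SPN was 1.81 and 2.24 in WT, 2.01 and 3.61 in clone 1#, and 2.15 and 3.37 in clone 2#. The genotypes overlapped (exact permutation test, two-sided, p = 0.267), although within replicate numbers the ratio was above that of WT in 4 of 4 MSX2-/- libraries. RUNX1 per PECAM1, the endothelial antigen CD31, was 0.0434 and 0.117 in WT and 0.139 to 0.265 in MSX2-/- libraries, without overlap (exact permutation test, two-sided, p = 0.133). CBFA2T3 per SPN was 0.748 and 1.30 in WT and 1.61 to 2.43 in MSX2-/- libraries, which did not overlap (exact permutation test, two-sided, p = 0.0667). Summed hematopoietic progenitor markers were above the WT library of the same number in 4 of 4 MSX2-/- libraries, with 14 of 16 markers at a mean of at least 1 FPKM, and so were erythroid markers, with 13 of 16 at that level and AHSP listed at 0. Summed endothelial markers were below it in 4 of 4. Megakaryocyte (116 to 134 FPKM in WT and 136 to 160 in MSX2-/- libraries), myeloid and mast (25.6 to 34.3 and 33.5 to 42.9, ELANE listed at 0), pluripotent (97.7 to 118 and 119 to 146) and cardiac sums (36.5 to 45.3 and 76.1 to 103) were above it in 4 of 4 as well, with 12, 5, 7 and 4 of 16 markers at a mean of at least 1 FPKM. Endoderm and liver markers (438 to 568 FPKM in WT and 379 to 833 in MSX2-/- libraries) were above it in 3 of 4 and neural markers (136 to 333 and 182 to 216, SOX1 and NEUROD1 listed at 0) in 2 of 4, with 13 and 3 of 16 at that level. Single genes carried much of some of these sums. In WT replicates 1 and 2, CD34 was 161 and 269 FPKM of progenitor sums of 315 and 486. NKX2-5 was 30.9 and 41.4 FPKM of cardiac sums of 36.5 and 45.3. PLVAP was 5015 and 5408 FPKM of endothelial sums of 8964 and 9953. Of the 16 endothelial markers, 3 were called lower without the block and 8 with it, beside 0.321% and 3.74% of all genes. Called higher were 0 without the block and 1 with it, beside 0.963% and 6.11% of all genes. The part of the marker lists in the RUNX1 and CBFA2T3 differences was not tested.

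Of the known blood genes under RUNX control, 29 of 41 were tested. The list was written with earlier results of these data known, and it holds markers of the cells in which RUNX1 is active. Without the block 2 rose and 0 fell, beside 0.963% and 0.321% of all genes. With it 9 rose and 0 fell, beside 6.11% and 3.74% of all genes. The median log2 difference was 0.32, beside 0.01 for all genes tested, and it was 0.16 without WT replicate 1, 0.49 without WT replicate 2 and 0.52 with a pseudocount of 0.1. GFI1, a repressor that silences endothelial genes during EHT, rose from 3.92 ± 0.08 FPKM in WT to 30.4 ± 7.04 (SD; adjusted p 0.0100), and NFE2, a factor of platelet formation, rose from 11.7 ± 0.71 to 32.5 ± 2.22 (SD; adjusted p 0.0110). GFI1B, the relative of GFI1 in erythroid cells and megakaryocytes, rose from 4.60 ± 2.69 to 11.6 ± 5.12 FPKM (SD; adjusted p 0.366 without the block and 0.00290 with it). MYB, SPN and SPI1 were also among the 9 called with the block. Without WT replicate 1, or without either clone 1# library, none of the list was called in the fit without the block.

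Of 39 coactivators and modifiers of RUNX proteins tested, 0 were called without the block, beside 1.28% of all genes. With it 4 rose and 3 fell, beside 6.11% and 3.74% of all genes, at a median of -0.05. With the block FOS, a partner of RUNX in AP-1 complexes, rose by 0.97 on the log2 scale (adjusted p 0.00652), CCND3, a cyclin that binds RUNX1, by 0.82 (adjusted p 0.00498) and SMURF2, a ubiquitin ligase, by 0.70 (adjusted p 0.0442). The corepressor TLE1 fell by 0.78 (adjusted p 0.0149), the kinase HIPK2 fell by 0.49 (adjusted p 0.0402) and ETS1, which binds DNA together with RUNX1, fell by 0.27 (adjusted p 0.0366).

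Partners of the ETO family were tested for 35 of 36 genes. Without the block 4 rose and 0 fell, beside 0.963% and 0.321% of all genes. With it 7 rose and 2 fell, beside 6.11% and 3.74% of all genes, at a median of 0.05. GATA2, which founds the blood progenitor program, rose from 57.7 ± 2.69 to 143 ± 17.9 FPKM (SD; adjusted p 0.0152), and GATA1, its successor in erythroid cells, from 8.29 ± 0.86 to 19.6 ± 1.53 (SD; adjusted p 0.0220). GFI1 belongs to this list as well. SSBP2, which stabilises LDB1 in the TAL1 complex, fell by 1.08 (adjusted p 0.184 without the block and 0.00153 with it), and the E-protein TCF12 fell by 0.42 (adjusted p 0.214 and 0.0406). Leaving out 1 library lowered the 4 calls without the block to 0, except without a clone 2# library, where 2 genes were called.

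The next list held genes that RUNX2 and RUNX3 are known to control in bone, cartilage and lymphoid cells, together with NTRK3 of sensory neurons. Because the others were too low, 17 of its 31 genes were tested. Of these, 4 rose and 0 fell without the block, beside 0.963% and 0.321% of all genes. With the block 7 rose and 1 fell, beside 6.11% and 3.74% of all genes. The median was 0.44, and it became 0.12 with no filter and 0.73 with a pseudocount of 0.1. COL1A1, the main collagen of bone and of connective tissue generally, rose from 41.8 ± 19.9 to 198 ± 5.52 FPKM (SD; adjusted p 0.0152). ALPL, the alkaline phosphatase of mineralising cells, rose from 2.89 ± 1.70 to 11.8 ± 1.88 FPKM (SD; adjusted p 0.0470), FGFR3, a receptor that slows growth of cartilage, by 1.98 on the log2 scale (adjusted p 0.0274) and NTRK3, the neurotrophin-3 receptor of sensory neurons, by 2.34 (adjusted p 0.00535). MMP9, a matrix protease, fell by 1.21 (adjusted p 0.0638 without the block and 0.00762 with it). RUNX2 and RUNX3 themselves were not called. In the mesenchymal list, with COL1A1 among its members, 5 of 13 markers tested were higher with the block, beside 6.11% of all genes. Its sum was 1118 to 1481 FPKM in WT and 1261 to 1461 in MSX2-/- libraries, and its part was not tested. Without WT replicate 1 the list had 2 calls in place of 4, and without any 1 MSX2-/- library it had 1.

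The genes whose profile over the 6 libraries was nearest to RUNX1 and to CBFA2T3 were found among the 9545 others that averaged 5 FPKM or more, by the root mean square difference of centred log2(FPKM + 1). For RUNX1 they were GFI1B (0.10), FOS (0.14), ENC1 (0.15), VPS9D1-AS1 (0.16) and ZAP70 (0.16). For CBFA2T3 they were ATP2A3 (0.13), AC093159.1 (0.13), HECW2 (0.15), ALPL (0.19) and LPAR5 (0.21). The distance between RUNX1 and CBFA2T3 was 0.31, and that between RUNX1 and its partner CBFB was 0.61. These distances describe 6 libraries that share their genotype and set, and they carry no test.

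**Figure D5:**
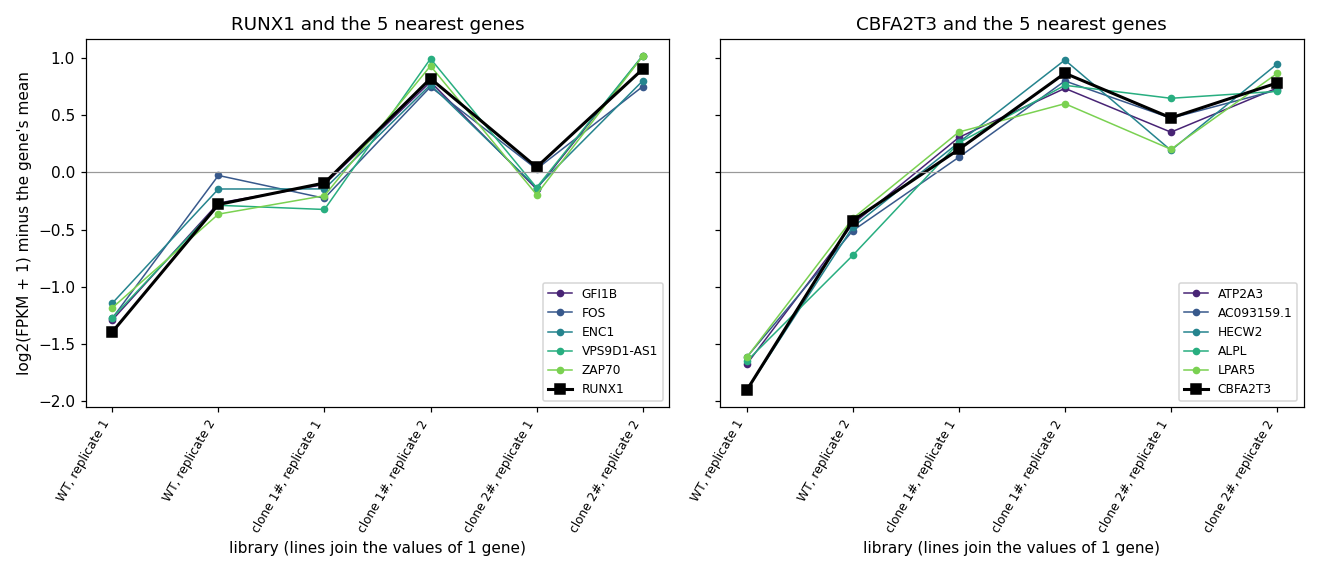
log2(FPKM + 1) minus the mean of each gene over the 6 libraries, for RUNX1 (left) and CBFA2T3 (right) as black squares and for the 5 nearest genes in colour; lines join the values of a gene and mark no order of libraries. In both panels WT replicate 1 is lowest, and each of the RUNX1 neighbours is higher in replicate 2 than in replicate 1 of the same line.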

How the data were processed

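RNA-seq libraries of H1-derived cells at day 8, 2 of WT and 4 of MSX2-/- cells, were taken from 1 table that the authors deposited as FPKM per gene symbol, without pooling replicates. The submitters' processing notes name BWA, Bowtie, RSEM and hg19, and the series' design text names TopHat with Cufflinks; their roles, versions and the annotation are not given in the sources used here. Of the rows, 58364 held values. The number of reads is unknown, so no interval for counting error is given. FPKM summed to 555286 to 617120 per library, and 13366 to 14222 genes reached 1 FPKM. The labels number the clones differently from the columns, with no key, so the column names 1# and 2# were used. Positions are from GENCODE 29 (GRCh38) by symbol, and promoters from RefSeq (GRCh38.p14), in which 5 of 7 members were used, without CBFB and RUNX1T1.

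log2(FPKM + 1) was fitted for the 15895 genes that averaged 0.5 FPKM or more, with limma 3.58.1 in R 4.3.3 (mean-variance trend, Benjamini-Hochberg adjustment, threshold 0.05, two-sided). MSX2-/- was compared with WT without and with a block for replicate number; clones in a fit of 3 groups. Ratios were compared by exact permutation of libraries, without regard to replicate number or clone. The planned ratios were the RUNX1 share, CBFB per summed RUNX and the CBFA2T3 share. Other ratios and sums were added to them. The numbers paired the libraries: the set letter is shared across lines, and differences between replicates correlated at 0.508 (WT and 1#), 0.540 (WT and 2#) and 0.636 (1# and 2#) over genes. Scripts were tested on simulated data with a shift between sets and no difference between clones, which checks the code and not the calls. Members and gene lists were chosen with earlier results of these data known. Genes named beside the members were those of each list called without the block, the 3 highest and 3 lowest called with it at 5 FPKM or more on average, and the 5 nearest profiles. Some genes that this rule takes are not reported here. MYB, SPN and SPI1 were named after their values were seen. Alternatives were a pseudocount of 0.1, no filter, a minimum mean of 5 FPKM, rescaled libraries, no trend, 3 groups, 1 clone alone and leaving out each library; the last was also run with the block, a choice made after seeing the data.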

Additional observations from a re-analysis of the deposited data

Results flagged for a closer look

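RUNX1T1 in clone 2# replicate 2, at 33.9 FPKM, stood apart from the other 3 MSX2-/- libraries, which lay at 27.1 to 28.1 FPKM. Its gap to the nearest of them was 0.858 of the range of the group, above the 95% limit for 4 samples. Chance marks about 1 in 20 groups in this way, and 20 measures were looked at, of which this was the 1 past the limit.

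CBFA2T2 was above the WT library in both clones of set F, with a mean log2 difference of 0.28 (FPKM ratios of 1.04 and 1.43), and below it in both clones of set S (0.970 and 0.932). The difference between the sets was -0.34 ± 0.28 (standard error) at an adjusted p of 0.681 in limma, so that it did not pass the test.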

How the results depend on the processing

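The direction of RUNX1 and CBFA2T3 against WT was the same in each alternative run, including a pseudocount of 0.1, no filter, a minimum mean of 5 FPKM, rescaled libraries, no mean-variance trend, 3 groups, 1 clone alone and each library left out. With the replicate block, 1566 genes were called in place of 204, 2 members in place of 0 (also 2 in each clone), and 9, 7, 9 and 8 genes of the lists of RUNX blood targets, RUNX coactivators, ETO partners and RUNX2 or RUNX3 targets, in place of 2, 0, 4 and 4. It changed no other call of a member. With no filter 125 genes were called, 1 of the RUNX2 or RUNX3 targets, and 0 members between sets in place of 5; with no filter and the block, 507 genes and 1 member, RUNX1. The fit of 3 groups called 6 genes, clone 1# alone 0 and clone 2# alone 1. Directions of members that were not called turned with the clone: RUNX3 was -0.0928 in clone 1# alone, and CBFB -0.0642 in clone 2# alone.

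With each library left out in turn and no block, 11 (without clone 1# replicate 1) to 76 genes (without WT replicate 2) were called, and 0 members. The log2 differences ran from -0.0181 to 0.61 for RUNX2, -0.51 to 0.71 for RUNX3, -0.22 to 0.31 for CBFB and -0.31 to 0.52 for CBFA2T2, so that their direction turned with 1 library. List calls ran from 0 to 2 (RUNX blood targets), 0 to 2 (ETO partners) and 1 to 3 (RUNX2 or RUNX3 targets). Members called between sets ran from 0 to 3, and RUNX1T1 between sets from -0.19 to 0.14. The difference in the RUNX1 share ran from -4.78 percentage points without WT replicate 1 to 21.1 without WT replicate 2. The cause of these changes was not tested. With 2 WT libraries, the choice of block decides the calls of RUNX1 and CBFA2T3, and read depth is unknown.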

Other observations

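The table of primers that accompanies the study lists a RUNX1 RT-PCR pair, which was searched on both strands of 206694 GENCODE 29 transcripts with no mismatch. The primer named forward, aacgtgcattctgagggctgtcat, matched 2 RUNX1 transcripts on the minus strand, RUNX1-203 and RUNX1-215. The primer named reverse, cctggaggagaagaggaaagaga, matched no RUNX1 transcript, where its best site had 7 mismatches, and it matched 11 transcripts of RPL13A, a ribosomal protein gene, on the plus strand. No RT-PCR value is used here.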
